A study of Mus musculus with 32 samples.

Results

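The nuclear genes Atp5g1, Mrpl13, Mrpl18 and Tomm20, whose products work in mitochondria, were followed on cDNA arrays of mouse NIH 3T3 fibroblasts before and after induction of eIF4E. They were represented by 6 cDNA clones among the 15247 clones of the arrays, 1 clone each for Atp5g1, Mrpl13 and Mrpl18 and 3 clones for Tomm20. All 6 stood on the study's list of mRNAs whose polysomal/total ratio differed between the cell lines, so that difference chose them, and it is described here without a test. Each clone's row was found as the only row whose difference equalled the listed numerator to 6 digits, and all 6 rows lay in the printing grid that the clone's plate well gives. The accessions of H3119A04, H3030A04, H3101D10 and H3038G11 were found in RefSeq. Those of the Tomm20 clones H3025F06 and H3152B10 were not, so their assignment to Tomm20 rests on the list.

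The 3T3-tTA-eIF4E line makes eIF4E when tetracycline is taken away, and the parental line 3T3-tTA carries the tetracycline-controlled transactivator without the eIF4E transgene. Each line was followed 5 h after tetracycline removal. On 8 arrays, named T1 to T15 with odd numbers, total RNA of induced cells was hybridized together with that of uninduced cells. On 8 further arrays, P1 to P15, RNA from heavy polysomes was hybridized together with total RNA. Since RNA of whole cultures was measured, a change in some of the cells and a smaller change in all of them cannot be told apart. There were 4 arrays for each of the 4 conditions, 2 in each dye orientation, and each carried 2 spots of every clone. The reference on P1, P3, P5 and P7 is called uninduced in the labels and induced in the methods, and the methods were followed. Every value below is a log2 ratio whose sign was set by the dye label. Normalization centred each array on its clones. Positive thus means a higher polysomal/total or induced/uninduced ratio than typical clones on that array had, not a larger amount of RNA outright. An error is the SD over the 4 arrays of a condition, which come from 2 RNA extractions, and their number limits the precision. Total RNA ratios of opposite dye within a line still correlated at -0.61 to 0.14 over all clones, and polysomal ones at -0.42 to 0.13. The induced gene itself, measured by 3 Eif4e clones, was 6.73-fold, 7.39-fold and 13.8-fold higher after induction in total RNA of 3T3-tTA-eIF4E, with limma adjusted p-values of 0.0762, 0.212 and 0.169. In 3T3-tTA the same clones stood at 0.986-fold to 1.04-fold. Of the fibroblast markers looked for, only a Col1a2 clone (collagen) could be named, and it stood at 6.71 to 37.8 times local background in Cy3 and 2.38 to 25.9 times in Cy5 on the 4 arrays with scanner intensities.

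Nearly all mitochondrial proteins are encoded in the nucleus, translated on cytosolic ribosomes and imported. eIF4E binds the cap at the 5′ end of mRNAs and helps recruit the ribosome, and an mRNA that carries many ribosomes sediments with heavy polysomes. Tomm20 is a receptor of the outer membrane translocase that recognizes the presequences of imported proteins. Mrpl13 and Mrpl18 belong to the large subunit of the mitochondrial ribosome, which translates the few mRNAs made from mitochondrial DNA. Atp5g1 encodes subunit c of the ATP synthase, which forms the rotating ring in the inner membrane.

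In the RefSeq annotation of GRCm38.p6, Atp5g1 lies on chromosome 11 at 96072793 to 96075694, Mrpl13 on chromosome 15 at 55534095 to 55557312, Mrpl18 on chromosome 17 at 12911345 to 12917787 and Tomm20 on chromosome 8 at 126930664 to 126945921. The RefSeq promoter table held 3 of the 4 genes. Its start equals the end of the gene's span for Tomm20, but lies 63 bases inside the span for Atp5g1 and 1696 bases inside it for Mrpl18. Whether those starts belong to other transcripts was not checked, and only Tomm20 is shown. The 30 bases just before that start, on the minus strand, are printed because 3 of the 6 clones are listed under Tomm20, and the capitals mark a match on either strand to GCGC and TGCGC 1 base apart, letters of the NRF-1 motif.
Tomm20, chr8:126945922-126945951: gggtccatctGCGCGTGCGCaccaggcgtt
Within windows from 250 bases before to 50 after the start, 4.60% of all 32851 promoters in the table held these letters. The windows of Atp5g1 and Mrpl18, at the starts inside their spans, did not hold them. The Tomm20 transcript opened with a C and 3 pyrimidines in all, and a C followed by at least 4 pyrimidines was found at 2.51% of all starts. These are descriptions of letters and not evidence of binding.

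In polysomes, the Atp5g1 clone, both mitoribosome clones and the Tomm20 clones H3038G11 and H3152B10 had higher mean polysomal/total ratios in the eIF4E line than in the parental line, by 0.43 to 1.27 on the log2 scale. The Tomm20 clone H3025F06 went the other way, at -0.48. All arrays of 3T3-tTA-eIF4E lay above all arrays of 3T3-tTA for Atp5g1 and for H3038G11, as for 0.728% of all clones. All lay below them for H3025F06, as for 0.61% of all clones. Since these arrays chose the clones, nothing is read from those counts. The clone nearest to the study's limit of 1.3-fold was Mrpl13, at 1.35-fold. Just outside that limit no clone of these genes could be named.

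**Figure D1:**
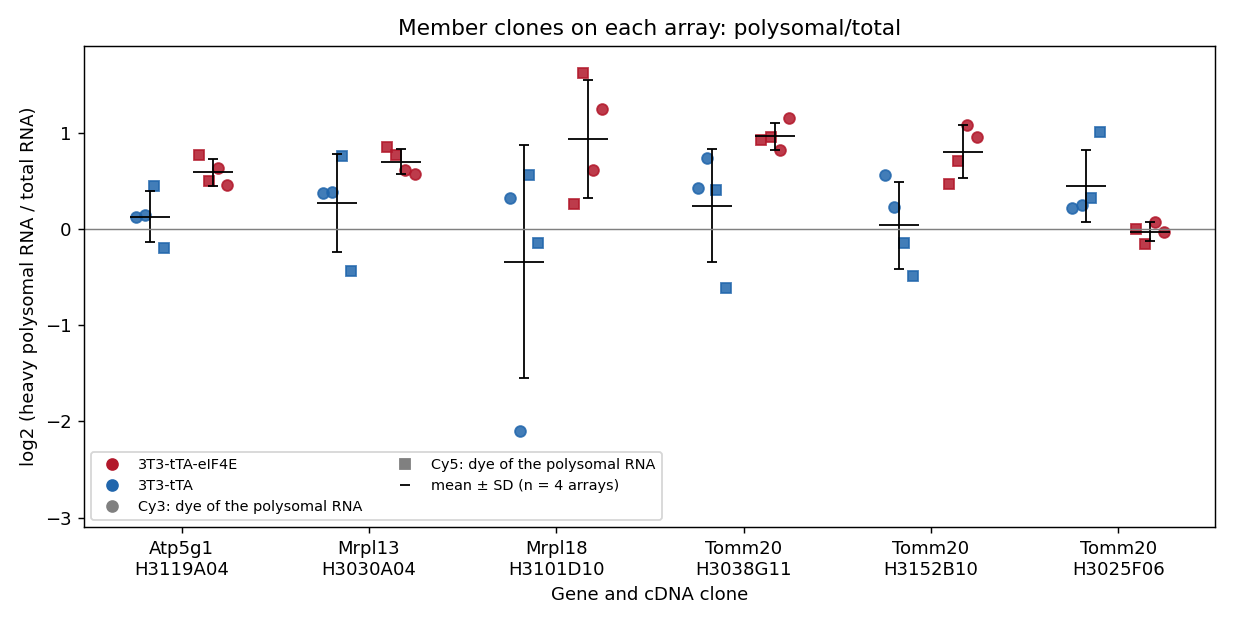
Log2 ratio of heavy polysomal to total RNA for the 6 clones (x axis), with a point for each array, red for 3T3-tTA-eIF4E and blue for 3T3-tTA, circles and squares for the dye of the polysomal RNA, and the mean ± SD of 4 arrays as black bars. Atp5g1 and Tomm20 H3038G11 separate the lines upward and Tomm20 H3025F06 downward, while the Mrpl18 values of 3T3-tTA run from -2.10 to 0.56.

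The Atp5g1 clone had polysomal/total log2 ratios of 0.77, 0.49, 0.63 and 0.46 on arrays P1, P3, P5 and P7 of 3T3-tTA-eIF4E, a mean of 0.59 ± 0.14 (SD, n = 4). On P9, P11, P13 and P15 of 3T3-tTA they were 0.12, 0.14, 0.45 and -0.20, a mean of 0.13 ± 0.27 (SD, n = 4). The groups were separated by little, since P13 at 0.45 nearly reached P7 at 0.46. The difference was 0.46, or 1.38-fold, and 0.33 without P15.

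The Mrpl13 clone had ratios of 0.85, 0.77, 0.61 and 0.57 on P1, P3, P5 and P7, a mean of 0.70 ± 0.13 (SD, n = 4). In 3T3-tTA it had 0.38, 0.39, 0.75 and -0.44 on P9, P11, P13 and P15, a mean of 0.27 ± 0.51 (SD, n = 4). The groups overlapped through P13, though only with P5 and P7 of the opposite dye orientation, and P15 alone was below 0. Without P15 the difference of 0.43 became 0.16.

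The Mrpl18 clone had the largest difference of the 6 clones, 1.27, and also the widest spread. Its ratios were 0.26, 1.62, 0.61 and 1.24 on P1, P3, P5 and P7, a mean of 0.93 ± 0.61 (SD, n = 4), and 0.33, -2.10, 0.56 and -0.15 on P9, P11, P13 and P15, a mean of -0.34 ± 1.21 (SD, n = 4). The groups overlapped, and P11 lay far below every other array. Without P11 the difference was 0.68, and without both P3 and P11, an alternative chosen after seeing the data, it was 0.33.

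Tomm20 H3038G11 had the most even ratios in 3T3-tTA-eIF4E for their size, 0.92, 0.96, 0.81 and 1.15 on P1, P3, P5 and P7, with a mean of 0.96 ± 0.14 (SD, n = 4). In 3T3-tTA they were 0.43, 0.74, 0.40 and -0.61 on P9, P11, P13 and P15, with a mean of 0.24 ± 0.59 (SD, n = 4). No array of one line reached the other line. The difference was 0.72, or 1.65-fold, and 0.45 without P15.

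Tomm20 H3152B10 had ratios of 0.47, 0.70, 1.08 and 0.96 on P1, P3, P5 and P7, with a mean of 0.80 ± 0.27 (SD, n = 4). In 3T3-tTA they were 0.56, 0.23, -0.15 and -0.49 on P9, P11, P13 and P15, with a mean of 0.04 ± 0.45 (SD, n = 4). The lines overlapped only in P1 and P9, which differ in dye orientation. In both lines the Cy3 arrays (P5, P7, P9 and P11) were higher than the Cy5 arrays. The difference of 0.76 ranged from 0.66 to 0.86 as each array was left out in turn, the narrowest range relative to its size among the 6 clones.

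Tomm20 H3025F06 stayed near 0 in 3T3-tTA-eIF4E, with 0.0024, -0.15, 0.07 and -0.03 on P1, P3, P5 and P7 and a mean of -0.03 ± 0.09 (SD, n = 4). In 3T3-tTA it was at 0.22, 0.25, 0.32 and 1.01 on P9, P11, P13 and P15, with a mean of 0.45 ± 0.37 (SD, n = 4). All arrays of 3T3-tTA lay above all of 3T3-tTA-eIF4E. P15 stood apart from the other 3 arrays, and without it the difference of -0.48 became -0.28. The 3 clones listed under Tomm20 thus stood at 0.72, 0.76 and -0.48.

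**Figure D2:**
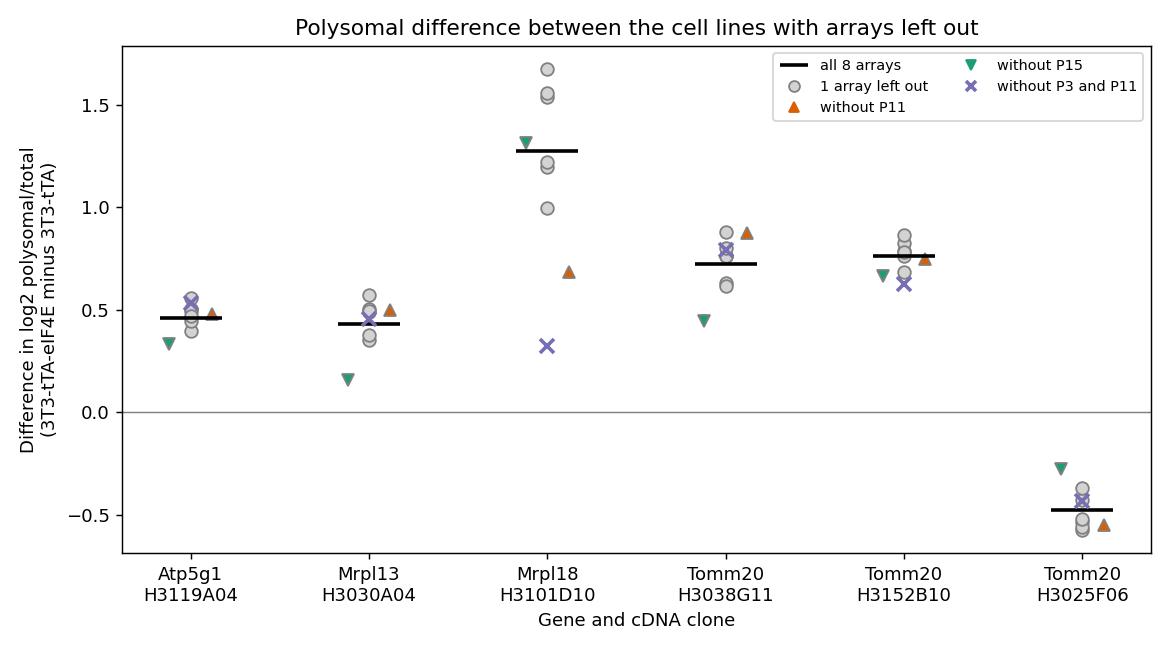
Polysomal difference on the log2 scale, eIF4E line minus parental line (y axis), for each clone (x axis) with all 8 arrays (black bar), with each array left out (circles, upward triangles for P11 and downward triangles for P15) and without both P3 and P11 (crosses). Leaving out P11 and P3 lowers Mrpl18 to 0.33, and leaving out P15 moves every clone except Mrpl18 toward 0. No sign turns, but the clones were listed by this difference.

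P15 was the lowest of the 4 polysomal arrays of 3T3-tTA for 4 of the 6 clones, Atp5g1, Mrpl13 and the Tomm20 clones H3038G11 and H3152B10. It was the highest for H3025F06. Over all clones it was the lowest for 31.8% and the highest for 33.9%, and its SD over all clones, 0.997, was the largest of the 16 arrays. The part of P15 in the differences beyond the values without it was not tested.

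The scanner intensities held for P3, P7, P11 and P15 show how bright these spots were. Atp5g1 was well above its local background in both channels on these arrays, at 5.32 to 10.8 times background in Cy3 and 7.57 to 19.6 times in Cy5. H3038G11 was at 3.12 to 4.04 times background in Cy3 and 2.90 to 9.06 times in Cy5. H3152B10 was dimmer, at 1.89 to 3.55 times in Cy3 and 2.23 to 7.24 times in Cy5. Medians over all spots of the arrays were 1.68 to 3.06 times background in Cy3 and 2.95 to 4.96 times in Cy5.

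Mrpl18 and H3025F06 were the dimmest of the 6 clones in Cy3. Mrpl18 stayed at 1.41 to 1.77 times background in Cy3 on all 4 arrays. In Cy5 its spots reached 8.31 and 7.41 times background on P3 and 13.4 and 12.7 times on P11, against 1.56 and 1.89 on P7 and 2.59 and 1.92 on P15. Cy5 labelled the polysomal RNA on P3 and the total RNA on P11, so brighter Cy5 spots stood in the numerator of the former ratio and in the denominator of the latter. Both duplicate spots carried the brighter signal on each of these arrays. Their part in the Mrpl18 difference, beyond its value without P3 and P11, was not tested.

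H3025F06 had a Cy3 foreground of 289 against a background of 291 in 1 spot of P7, and at most 1.93 times background in Cy3 elsewhere. Its Cy5 spots on P15 were the exception, at 7.91 and 4.95 times background with foregrounds of 3147 and 1475, while on P3, P7 and P11 they stayed at 1.43 to 2.38 times. Cy5 carried the polysomal RNA on P15. The duplicate spots of P15 gave log2 ratios of 1.47 and 0.54, the largest gap between duplicates among all member values. For Mrpl13, 1 spot of P11 had a Cy5 background of 1683 against a foreground of 1582, and its duplicate had 491 against 1494, yet the ratios were formed without background subtraction.

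**Figure D3:**
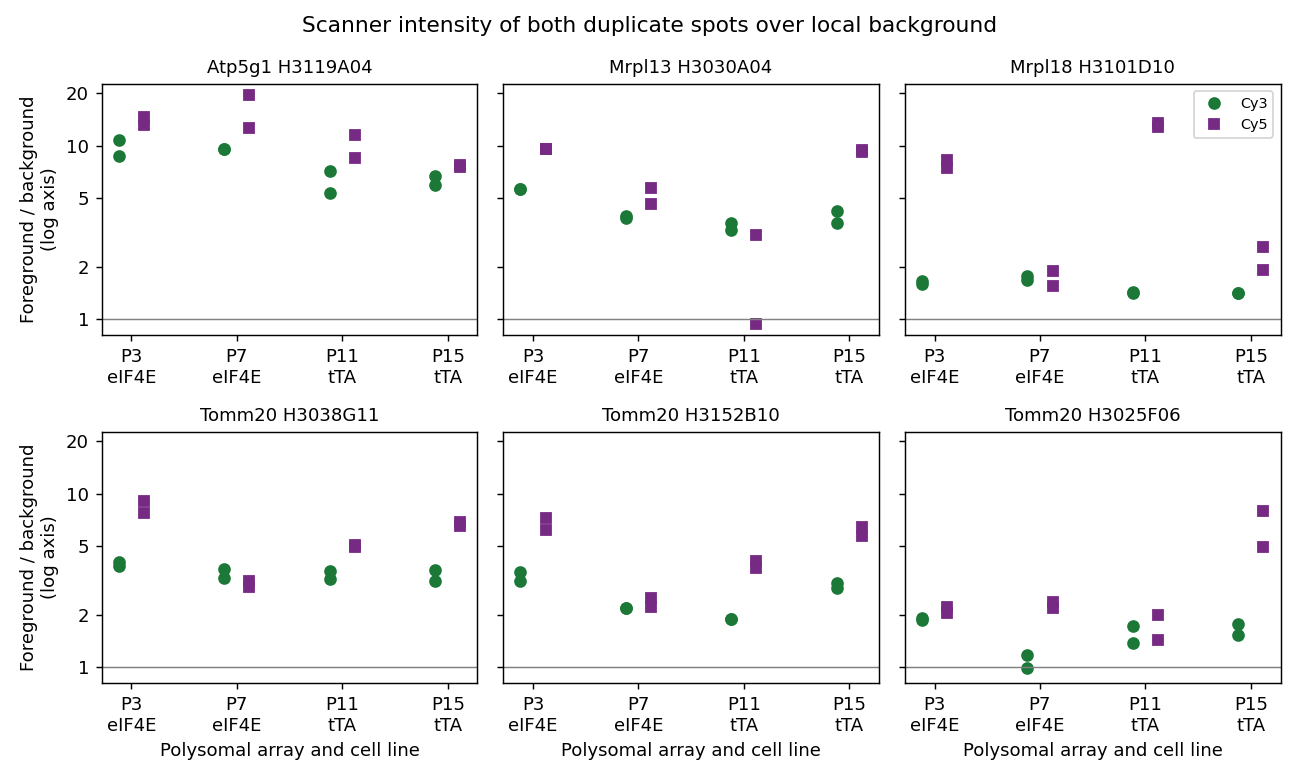
Foreground over local background (y axis, log scale) of both duplicate spots in Cy3 (green circles) and Cy5 (purple squares) for the 6 clones on the polysomal arrays P3 and P7 of 3T3-tTA-eIF4E and P11 and P15 of 3T3-tTA (x axis, marked tTA). The Cy5 spots of Mrpl18 on P3 and P11 and of Tomm20 H3025F06 on P15 stand above the same clones' Cy5 spots on the other arrays shown.

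The mean over both lines is another contrast than the difference that chose the clones, but it draws on the same 8 polysomal arrays. The mean polysomal/total ratio over both lines was above 0 for all 6 clones, at 0.21 to 0.60, as it was for 56.6% of all clones, whose median was 0.04. Single arrays moved some of these means: Mrpl18, at 0.29, was 0.59 without P11, 0.50 without P1 and 0.15 to 0.16 without P13, P7 or P9, and H3025F06, at 0.21, was 0.11 without P15. None passed limma at an adjusted p under 0.1 with a change of at least 1.3-fold, where 2.13% of all clones passed. Tomm20 H3038G11 had 0.60 ± 0.15 (SE), limma adjusted p = 0.203, H3152B10 had 0.42 ± 0.11, adjusted p = 0.210, and H3025F06 had 0.21 ± 0.11, adjusted p = 0.484. Mrpl13 had 0.48 ± 0.14, adjusted p = 0.253, Atp5g1 had 0.36 ± 0.12, adjusted p = 0.291, and Mrpl18 had 0.29 ± 0.30, adjusted p = 0.700. Without P15, Mrpl13 (limma adjusted p = 0.0590) and H3038G11 (0.0556) passed, and the share of all clones that passed rose to 4.69%. Without P9 their limma adjusted p-values were 0.599 and 0.460, and with any array other than P15 left out none of the 6 clones passed. Since these arrays chose the clones, nothing is read from the passes.

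In total RNA, no clone of these genes passed the limits, in a fit that called few clones of any kind: the smallest adjusted p over all clones was 0.438 for the difference between the lines. On the total RNA arrays, which played no part in choosing the clones, the difference between the lines ran from -0.11 to 0.23, with a median of 0.0040 beside a median of -0.0097 over all clones. All 6 clones had a limma adjusted p of 1.00, no clone had arrays that did not overlap between the lines (0.918% of all clones did), and 0 clones were called (0% of all 15247 clones, with 68 at an unadjusted p under 0.05). Taking each array as a replicate, 3 of all clones were called, none of them a clone of these genes.

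**Figure D4:**
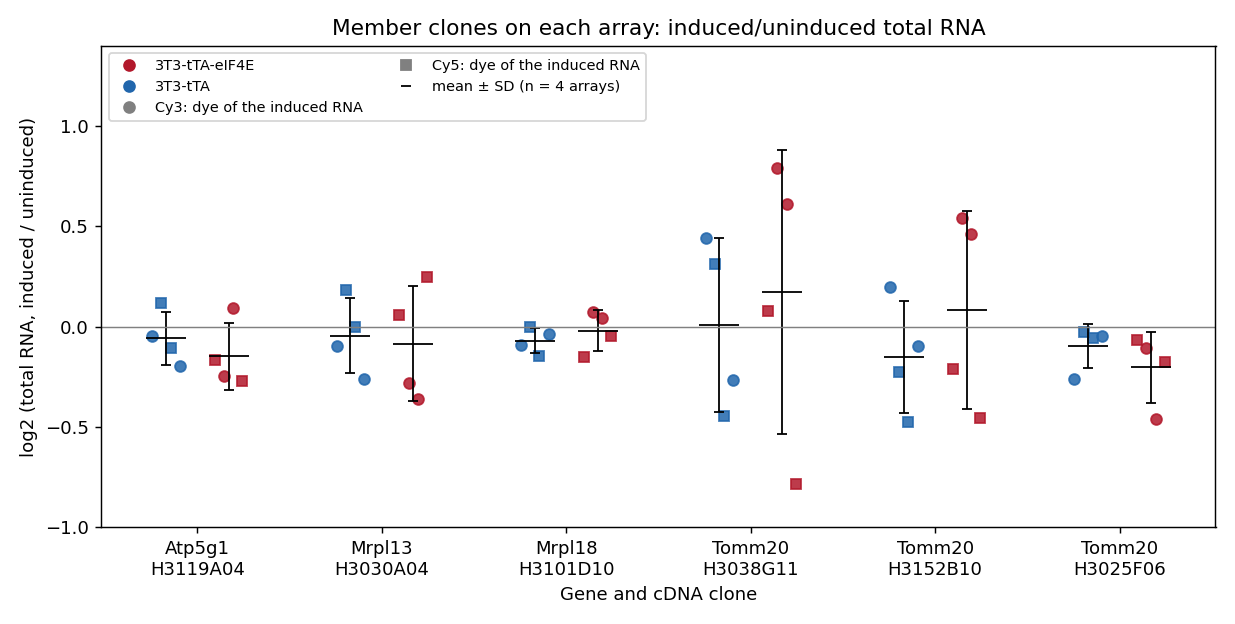
Log2 ratio of total RNA, induced over uninduced, for the 6 clones (x axis), with a point for each array, red for 3T3-tTA-eIF4E and blue for 3T3-tTA, circles and squares for the dye of the induced RNA, and mean ± SD of 4 arrays as black bars. The lines overlap for every clone, and the Tomm20 clones H3038G11 and H3152B10 spread most.

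Atp5g1 in total RNA had ratios of -0.16, -0.25, 0.09 and -0.27 on T9, T11, T13 and T15 of 3T3-tTA-eIF4E, a mean of -0.15 ± 0.17 (SD, n = 4). On T1, T3, T5 and T7 of 3T3-tTA they were -0.05, 0.12, -0.11 and -0.20, a mean of -0.06 ± 0.13 (SD, n = 4). The difference was -0.09 ± 0.14 (SE). Each line had 1 array above 0.

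Mrpl13 had 0.06, -0.28, -0.36 and 0.25 on T9, T11, T13 and T15, a mean of -0.08 ± 0.29 (SD, n = 4), and -0.10, 0.18, -0.0011 and -0.26 on T1, T3, T5 and T7, a mean of -0.04 ± 0.19 (SD, n = 4). In both lines its Cy5 arrays (T3, T5, T9 and T15) were higher than its Cy3 arrays. Mrpl18 was the least variable, with -0.15, 0.07, 0.04 and -0.05 on T9, T11, T13 and T15 and -0.09, -0.0025, -0.15 and -0.04 on T1, T3, T5 and T7. Its means were -0.02 ± 0.10 and -0.07 ± 0.06 (SD, n = 4), and its difference was 0.05 ± 0.11 (SE).

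Of the Tomm20 clones in total RNA, H3038G11 had 0.08, 0.79, 0.61 and -0.78 on T9, T11, T13 and T15, a mean of 0.17 ± 0.71 (SD, n = 4), and 0.44, 0.31, -0.45 and -0.27 on T1, T3, T5 and T7, a mean of 0.01 ± 0.43 (SD, n = 4). H3152B10 had -0.21, 0.54, 0.46 and -0.46 on T9, T11, T13 and T15, a mean of 0.08 ± 0.49 (SD, n = 4), and 0.20, -0.23, -0.47 and -0.10 on T1, T3, T5 and T7, a mean of -0.15 ± 0.28 (SD, n = 4). In 3T3-tTA-eIF4E both clones were high on the Cy3 arrays T11 and T13 and lowest on the Cy5 array T15. The dye term, by which Cy3 arrays stood above the average of both orientations, was 0.30 for H3038G11 and 0.31 for H3152B10, against an SD of 0.22 over all clones.

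H3025F06 was below 0 on all 8 total RNA arrays, at -0.07, -0.11, -0.46 and -0.17 on T9, T11, T13 and T15 and at -0.26, -0.03, -0.06 and -0.05 on T1, T3, T5 and T7. Its means were -0.20 ± 0.18 in 3T3-tTA-eIF4E and -0.10 ± 0.11 in 3T3-tTA (SD, n = 4). Neither differed from 0 by limma (adjusted p = 0.963 and 0.898), and the difference between the lines was -0.11 ± 0.12 (SE). Against 0, no other clone of these genes was called in either line (0.0131% of all clones were called in 3T3-tTA-eIF4E and 0% in 3T3-tTA, with 505 clones at an unadjusted p under 0.05 in the former and, in the latter, 438 above and 197 below 0).

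Across arrays, the Tomm20 clones H3038G11 and H3152B10 moved together. Their dye-adjusted ratios had a Pearson correlation of 0.86 over the 16 arrays and of 0.89 over the 8 total RNA arrays. H3025F06 had -0.21 and -0.18 with them over the 16 arrays, and -0.11 and -0.33 over the total RNA arrays. Over the 8 polysomal arrays, which chose the clones in opposite directions, it had -0.97 and -0.87 with them and -0.86 with Atp5g1. Atp5g1 had 0.89 with Mrpl13 over the 16 arrays and -0.10 over the 8 total RNA arrays, and 0.81 and 0.83 with the Tomm20 clones H3038G11 and H3152B10 over the 16 but 0.54 and 0.31 over the 8. With the Tomm20 clone H3025F06 it had -0.03 over the 16 and -0.42 over the 8. The points share RNA extractions and the contrast that chose the clones, so the correlations over 16 arrays are descriptions.

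Among the clones named in the study's lists that had a row, the profiles most like each member's over the 16 arrays were those of Rras2 and Laptm4a for Atp5g1 (both r = 0.914), and of Osbpl1a (0.947) and 2600017H08Rik (0.913) for Mrpl13. For Mrpl18 they were 2400004O09Rik (0.961) and LOC277939 (0.933). For Tomm20 they were Gng5 (0.949) and 3110001D03Rik (0.941) with H3038G11, Np15 (0.936) and Crtap (0.921) with H3152B10, and Chaf1a (0.958) and Chaf1b (0.934) with H3025F06. Np15, named Ndufb11 in RefSeq, is a subunit of respiratory complex I, and Chaf1a and Chaf1b are subunits of chromatin assembly factor 1. The candidates were 567 or 569 clones of other genes, named in the study's lists of translationally and of transcriptionally regulated mRNAs and so selected on the same arrays.

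The list held 20 further clones of 20 nuclear-encoded mitochondrial genes, also selected by the study on these arrays. Of these, 14 had a positive polysomal difference, at 0.47 to 0.85, and 6 a negative one, at -1.14 to -0.59, while 55.4% of the 543 listed clones with a row were positive. The directions were those by which the clones had been listed, and no theme is read from them. The positive ones held all 4 complex I genes among these 20 (Ndufaf1, Ndufs7, Ndufv2 and Np15). They also held the listed genes of complex II (Sdha), complex III (Uqcrb), complex IV (Cox8a) and protein import (Gfer and Timm23). The negative ones held 4 of the 5 metabolic enzymes among these 20, Cpt2, Dld, Pdha1 and Sqrdl. The other groups were mixed, with 3 positive and 1 negative among membrane proteins and 1 of each among genes of the mitochondrial genome, translation and chaperones. The lines were separated on every array for 2 of the 20, upward for Np15 (0.728% of all clones) and downward for Sqrdl (0.61%), and since the arrays chose these clones too, nothing is read from the count.

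The 2 highest polysomal differences were 0.85 for Ndufv2, a complex I subunit, and 0.79 for 0610041L09Rik, named Chchd3 in RefSeq and part of the inner membrane organizing system. The 2 lowest were -1.14 for Cpt2, which carries out the inner membrane step of fatty acid import, and -0.70 for Sqrdl (Sqor), which oxidizes hydrogen sulfide. The Cpt2 ratios of 3T3-tTA ran from 0.10 to 2.18, and P15 was the highest parental array for 5 of the 6 negative clones. Without P15, an alternative chosen after seeing the data, Cpt2 was at -0.79, Sqrdl at -0.30, Mpv17 at -0.12 and Dnaja3 at -0.11, and Dld (-0.68) was then the second lowest. Among the positive clones Ndufaf1 fell to 0.14, Gfer to 0.34, Cox8a to 0.27 and Tfam to 0.32, while Ndufv2 (0.87) and 0610041L09Rik (0.72) stayed within 0.1 of their values and Gdap1 (0.74) was then the second highest. Against the range with all arrays, Mrpl18 lay above all 14 positive clones, though its 0.68 without P11 and 0.33 without P3 and P11 did not, Atp5g1 and Mrpl13 lay below them, and H3025F06 was closer to 0 than the 6 negative clones. Without P15 for members and other genes alike, Atp5g1 (0.33) lay above Ndufaf1, Cox8a, Tfam and Aldh2, Mrpl13 (0.16) lay above Ndufaf1, and H3025F06 (-0.28) was farther from 0 than Mpv17 and Dnaja3.

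In total RNA the 20 clones ran from -0.54 to 0.33 with a median of 0.05, none was called by limma, and 1 had an unadjusted p under 0.05, as had 68 of all 15247 clones. The 2 highest differences were 0.33 for Gdap1, an outer membrane protein, and 0.24 for 0610041L09Rik. The 2 lowest were -0.54 for Bnip3, an outer membrane protein that acts in mitophagy and cell death, and -0.20 for Mpv17, an inner membrane protein. Bnip3 was at 0.13 ± 0.09 in 3T3-tTA-eIF4E and 0.67 ± 0.23 in 3T3-tTA (SD, n = 4), with arrays that did not overlap (limma adjusted p = 1.00). It was the 1 clone of the 20 without overlap in total RNA, where 0.918% of all clones had none. Averaged over both lines, Timm23, a core subunit of the inner membrane translocase, was at 1.05 in polysomes (limma adjusted p = 0.0876) and Gdap1 at -1.48 (adjusted p = 0.041), and these were the only 2 of the 20 past the limits, where 2.13% of all clones passed. This mean draws on the 8 polysomal arrays from which the 20 clones were listed, so nothing is read from that count.

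**Figure D5:**
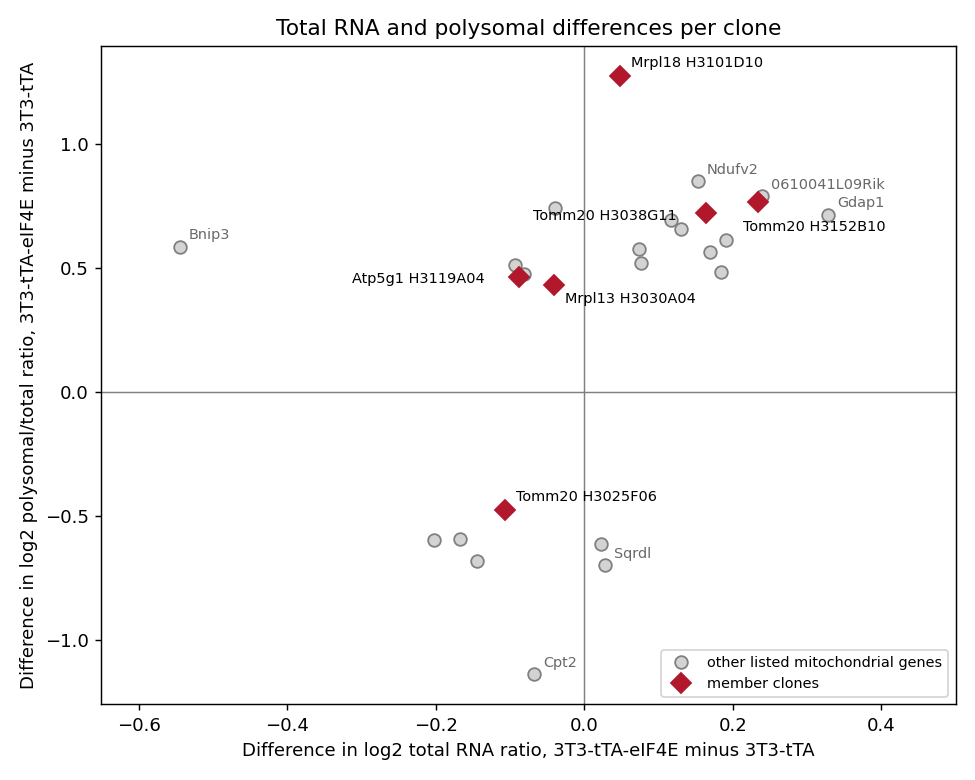
Polysomal difference (y axis) against total RNA difference (x axis), both on the log2 scale and as eIF4E line minus parental line, for the 6 clones (red diamonds) and the 20 other listed mitochondrial clones (grey circles). The 6 clones lie within -0.11 to 0.23 on the x axis, and the gap near 0 on the y axis comes from the list's selection.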

How the data were processed

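RNA of the eIF4E line and of its parental line was measured on 16 Mouse 15K3 arrays with 2 colours, whose duplicate spots are the 32 samples. The authors deposited log2 ratios of Cy3 over Cy5 for each spot, normalized within arrays by limma's lowess without background subtraction. The deposited scanner intensity of each spot, before normalization, was used for P3, P7, P11 and P15. The row names did not belong to the values, so rows were identified by the study's listed numerators, which gave 1 row for 543 of 554 listed clones and for all 6 used here. All 543 lay in the printing grid of their plate well.

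Duplicate spots were averaged, signs were set by the dye labels and these ratios are the values printed per array, with their SDs and overlaps. For the fits and correlations, each clone's dye term was estimated by least squares and subtracted. Limma 3.58.1 in R 4.3.3 was run over all 15247 clones on means of the 2 extractions per condition. Which arrays share an extraction is not given in the sources used here, so all 4 assignments were fitted and the largest p was kept. P-values were adjusted by Benjamini-Hochberg across the 15247 clones, and clones were called at an adjusted p under 0.1 with at least 1.3-fold. Nothing says that the extractions came from separate cultures, so p-values measure the spread between these extractions, which may be technical. The members, the list of mitochondrial genes and the tests were chosen with earlier results of these data known. The genes named were all member clones, the 2 most alike listed clones of other genes for each, and the 2 highest and 2 lowest of the other mitochondrial genes in each difference, with Timm23, Gdap1 and the members of the groups named after their values were seen. Alternatives were arrays as replicates, single spots, median centring, equal median absolute deviation, single dye orientations, a stricter limit and each array left out. Promoters and gene positions came from RefSeq for GRCm38.p6.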

Additional observations from a re-analysis of the deposited data

Results flagged for a closer look

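Of the 24 groups of 4 arrays examined, 6 clones in 4 conditions, 2 held an array far from the others by Dixon's ratio, where chance flags about 1 in 20 groups. Both belonged to Tomm20 H3025F06. Its polysomal/total log2 ratio was 1.01 on P15 of 3T3-tTA (Dixon's ratio 0.871), and its total RNA log2 ratio was -0.26 on T1 of 3T3-tTA (Dixon's ratio 0.874). The P15 value averaged duplicate spots at 1.47 and 0.54. No scanner intensities of T1 were used here.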

How the results depend on the processing

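Signs of the polysomal differences of all 6 clones held under every alternative run. The clones had been listed by these differences on these arrays, so nothing is read from the stable signs. The count of clones whose lines did not overlap, 3 (1.34% of all clones), was 1 with the second spot only (1.36%), 6 with the Cy3 arrays only (23.9%), 5 with the Cy5 arrays only (24.1%) and 3 to 5 with an array left out (2.30% to 3.48%), where fewer arrays overlap less by construction. These arrays chose the clones, so nothing is read from the counts. With the Cy3 and the Cy5 arrays only, the differences were 0.21 and 0.65 for Mrpl13, 1.82 and 0.73 for Mrpl18, 0.40 and 1.05 for H3038G11, and -0.21 and -0.74 for H3025F06.
Calls over all clones for the total RNA difference, 0, were 3 with arrays as replicates, 2 with the second spot only and 0 to 4 with an array left out (4 without T13). The 2 calls in total RNA of 3T3-tTA-eIF4E were 7 with arrays as replicates, 5 with the second spot, 4 with equal median absolute deviation, 0 with median centring or the stricter limit and 0 to 5 with an array left out, and in 3T3-tTA they stayed at 0. The 324 calls for the mean polysomal ratio were 1708 with arrays as replicates, 187 with the second spot, 856 with equal median absolute deviation, 54 with the stricter limit and 64 (without P9) to 715 (without P15) with an array left out. For this mean, with arrays as replicates, Mrpl13 (limma adjusted p = 0.0676), H3038G11 (0.0333) and H3152B10 (0.0259) passed, and with equal median absolute deviation H3038G11 did (0.0786). Nothing is read from these passes either, since the clones were chosen on the same arrays.
In total RNA, where no clone of these genes was called, signs changed for values near 0 and also by wider swings between the dyes. Between the lines H3038G11 was at 0.16 with all arrays and 0.61 with the Cy3 arrays only. In 3T3-tTA-eIF4E it was at 0.17 and 0.70. The difference between the lines became 0.047 for Atp5g1 (Cy3 only), 0.061 (Cy5 only) and 0.017 (equal median absolute deviation) for Mrpl13, and -0.026 for Mrpl18 and -0.29 for H3038G11 (Cy5 only). In 3T3-tTA-eIF4E the change became 0.15 for Mrpl13, -0.35 for H3038G11 and -0.33 for H3152B10 (Cy5 only), and 0.058 (Cy3 only) and 0.0013 (first spot) for Mrpl18. In 3T3-tTA it became 0.0062 for Atp5g1, 0.091 for Mrpl13 and -0.067 for H3038G11 (Cy5 only), 0.051 for H3152B10 (Cy3 only), and -0.011 (second spot) and -0.016 (equal median absolute deviation) for H3038G11. With an array left out, the ranges that crossed 0 were -0.10 to 0.019 for Mrpl13 and -0.095 to 0.45 for H3038G11 between the lines, -0.049 to 0.020 for Mrpl18 in 3T3-tTA-eIF4E, and -0.14 to 0.0087 for Atp5g1, -0.10 to 0.018 for Mrpl13 and -0.26 to 0.27 for H3038G11 in 3T3-tTA. The causes were not tested. No paired analysis was possible because the labels give neither the experimental sets by which, with dye, the study paired arrays nor array numbers shared by the lines compared. The fit with arrays as replicates took dye orientation as a term. Signal over background limits the ratios of Mrpl18 (1.41 to 1.77 in Cy3) and H3025F06 (0.993 in a Cy3 spot), and 1 Cy5 spot of Mrpl13 was at 0.940.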
